A study of Glycine max with 8 samples.

Results

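SNAP3-only and SNAP4-only sites are places in the soybean genome where peaks of FLAG-SNAP3 or FLAG-SNAP4 were found in both replicates and no peak of FLAG-SNAP1 or FLAG-SNAP2 was found in any library. Peaks of all 8 libraries that overlapped by at least 1 bp were joined into 21575 regions, and 463 of them (2.15%) met this rule. They comprised 281 regions with both SNAP3 replicates, 152 with both SNAP4 replicates and 30 with all 4 libraries, called SNAP3 sites, SNAP4 sites and joint sites here. The sites were chosen from the peak calls themselves, so the presence of SNAP3 or SNAP4 peaks and the absence of SNAP1 and SNAP2 peaks are descriptions and not findings.

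The SNAPs are NAC transcription factors (TFs), a plant-specific family that binds DNA through a conserved NAC domain at the N-terminus. Members of the NAP branch of this family are best known for promoting leaf senescence, and in legumes related NAC TFs act in the ageing of root nodules, the organs in which rhizobia fix nitrogen. In ChIP-seq (sequencing of immunoprecipitated chromatin) the DNA fragments to which a tagged TF was crosslinked are isolated with an antibody and sequenced.

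FLAG-SNAP3, FLAG-SNAP4, FLAG-SNAP1 and FLAG-SNAP2 were each represented by 2 replicates. All came from transgenic hairy roots with nodules, induced with Agrobacterium strain K599, in which the soybean pM4 promoter drove the tagged coding sequence of the TF from the cultivar Williams 82. Transformed roots were picked as positive before they were collected. The labels call each genotype a mutant of the SNAP gene, whereas the study describes tagged TFs, and both name the same TF for every library. Neither names a nitrogen level for these roots, and a control library was not analysed here. The tagged TF was thus expressed from a transgene and not from the promoter of its own gene. The study calls the replicates biological, and whether they came from separate transformations is not stated.

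The peak lists held 6590 and 3628 peaks for FLAG-SNAP3, 5888 and 6856 for FLAG-SNAP4, 8426 and 9052 for FLAG-SNAP1, and 7937 and 9332 for FLAG-SNAP2. FLAG-SNAP3 replicate 2 thus had the shortest list. Of all regions, 29.6% had a peak in FLAG-SNAP3 replicate 1, 16.4% in FLAG-SNAP3 replicate 2, 25.7% in FLAG-SNAP4 replicate 1 and 30.3% in FLAG-SNAP4 replicate 2. The lists do not give the number of reads behind them, for which the study states a common minimum only, so a missing peak cannot be told apart from a shallower library.

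Sites without SNAP1 and SNAP2 were a minority of what either TF bound. Regions with both SNAP3 replicates numbered 2629 (12.2% of all regions), and 311 of these (11.8%) had no SNAP1 or SNAP2 peak. Regions with both SNAP4 replicates numbered 3216 (14.9%), and 182 of these (5.66%) had none. Regions with both replicates of at least 1 of the 2 TFs numbered 4250 (19.7%). Of the 1595 regions with peaks in all 4 SNAP3 and SNAP4 libraries, 30 were joint sites (1.88%). The SNAP3 sites held 4.31% of the peaks of FLAG-SNAP3 replicate 1 and 7.80% of those of replicate 2, and the SNAP4 sites held 2.60% and 2.22% of the peaks of the FLAG-SNAP4 replicates.

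The number of sites depended on the requirement for both replicates. With a peak in at least 1 replicate there were 2178 SNAP3, 2083 SNAP4 and 372 joint sites. Without FLAG-SNAP3 replicate 1 or replicate 2 the SNAP3 sites numbered 763 and 2027, and without FLAG-SNAP4 replicate 1 or replicate 2 the SNAP4 sites numbered 1402 and 1124. The joint sites numbered 64 without FLAG-SNAP3 replicate 2, 77 without FLAG-SNAP4 replicate 1 and 64 without FLAG-SNAP4 replicate 2.

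Most sites of one TF had no peak at all of the other. A region with both replicates of the other TF was counted as a joint site, so this is partly set by the rule. Among the 281 SNAP3 sites, 202 had no SNAP4 peak, 34 had one in FLAG-SNAP4 replicate 1 only and 45 in replicate 2 only. Among the 152 SNAP4 sites, 114 had no SNAP3 peak, 34 had one in FLAG-SNAP3 replicate 1 only and 4 in replicate 2 only. A single peak of the other TF was thus found at 28.1% of SNAP3 sites (95% Wilson interval 23.2 to 33.6%) and at 25% of SNAP4 sites (18.8 to 32.4%). At the SNAP4 sites it came mostly from the SNAP3 library with the longer peak list. These intervals and those that follow cover counting error over regions only, since regions of one library are not replicates. The FLAG-SNAP4 replicates had a peak at 74.7 and 80.7% of the other SNAP3 regions, and at 25.7 and 30.3% of all regions. The FLAG-SNAP3 replicates had one at 22.4 and 2.63% of SNAP4 sites, at 69.8 and 55.0% of the other SNAP4 regions, and at 29.6 and 16.4% of all regions. The other regions are those with SNAP1 or SNAP2 peaks, and they include regions with both replicates of the other TF.

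The enrichment at the sites was moderate. Peak strength bears on whether another library has a peak, so it is not independent of the rule. The differences in strength given here are description only. Fold enrichment is the ratio of the signal at a peak's summit to the local background, as the authors' peak caller gave it. Medians of sites and other regions were compared within a library. Replicates were also set against each other, and means over libraries served to rank sites and to divide regions by strength. SNAP3 sites had a median fold enrichment of 4.75 in FLAG-SNAP3 replicate 1, with a lowest value of 2.46 and a highest of 8.84, and a median of 4.85 in replicate 2, with values between 2.75 and 9.07. The 2318 other regions with both SNAP3 replicates, which also had at least 1 SNAP1 or SNAP2 peak, had medians of 5.77 and 5.59 and reached 22.6 and 22.1. No SNAP3 site entered the upper part of that range, whereas the lowest values of both sets lay close together.

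SNAP4 sites had a median fold enrichment of 4.05 in FLAG-SNAP4 replicate 1, with values between 1.66 and 11.4, and of 4.18 in replicate 2, with values between 1.70 and 12.3. The 3034 other regions with both SNAP4 replicates had medians of 4.33 and 4.61 and reached 25.05 and 24.2. Joint sites had medians of 4.76 and 5.22 in the FLAG-SNAP3 replicates and of 4.03 and 4.11 in the FLAG-SNAP4 replicates. A value above the median of all regions of the library was found in both own libraries at 72 of 281 SNAP3 sites and 55 of 152 SNAP4 sites, and in all 4 libraries at 10 of 30 joint sites. The sets overlapped broadly in every library. The median SNAP3 site stood at percentile 47.6 and 39.9 of the peaks of its replicates, the median SNAP4 site at 51.5 and 49.3, and the median joint site between 45.4 and 52.0.

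**Figure D1:**
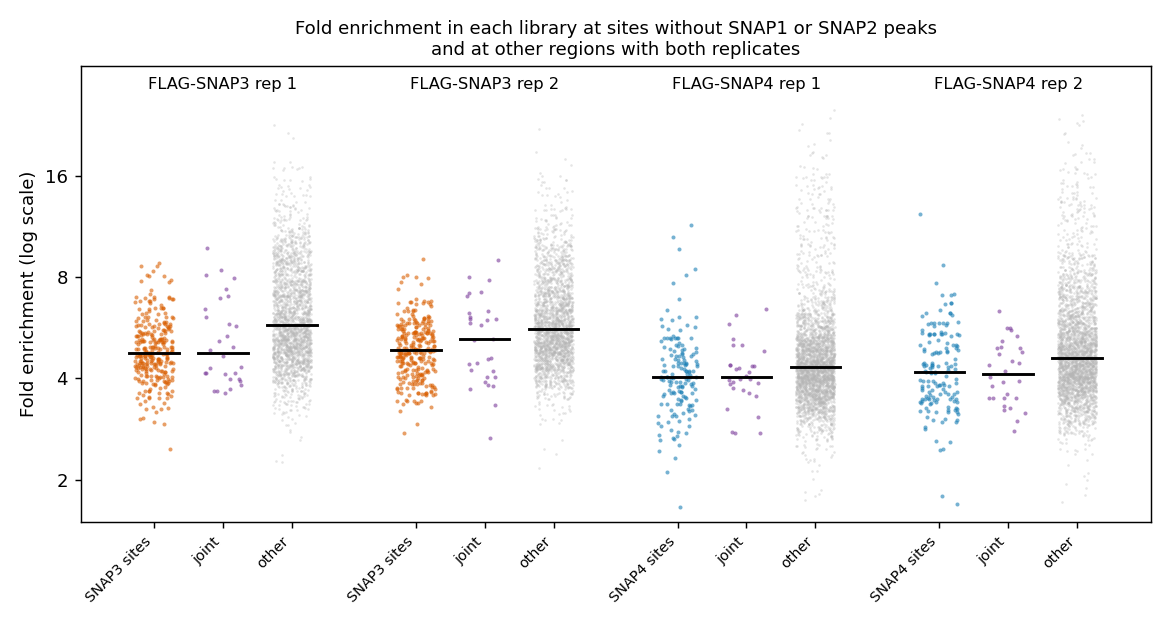
Fold enrichment (log scale) of each region in the 4 SNAP3 and SNAP4 libraries, with SNAP3 or SNAP4 sites, joint sites and the other regions with both replicates side by side; points are regions and black bars are medians. The medians of the SNAP3 sites, 4.75 and 4.85, lie below those of the other regions, 5.77 and 5.59, and the points overlap. The other regions include those at tRNA genes. Strength is not independent of the rule that chose the sites.

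The sites were also narrow. The median width of the joined region was 355 bp for SNAP3 sites, 343.5 bp for SNAP4 sites and 483 bp for joint sites, against 625 bp for the other SNAP3 regions and 654.5 bp for the other SNAP4 regions. Widths of joined regions grow with the number of libraries that contribute a peak, which was set by the rule, so the width is no finding. The strength was also set against the number of SNAP1 and SNAP2 libraries that had a peak. For SNAP3, the median fold enrichment in replicate 1 was 4.75, 4.996, 5.07, 5.05 and 6.47 for regions with 0, 1, 2, 3 and 4 such libraries. For SNAP4 it was 4.05, 4.03, 3.92, 4.10 and 4.50. In both TFs the regions with all 4 had the highest median, and those with 0 to 3 lay close together.

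The replicates gave similar values at the sites, as they did at the other regions. The rule required a peak of both replicates in the same region, so the closeness of summits is partly set by it. The summits of the 2 replicates lay a median of 49 bp apart at SNAP3 sites and 67 bp at SNAP4 sites, and within 100 bp at 197 of 281 and 106 of 152 sites. Fold enrichment differed between replicates by a median ratio of 1.14 at SNAP3 sites and 1.15 at SNAP4 sites, and by more than 1.5-fold at 10 and 9 sites. The other SNAP3 regions had a median ratio of 1.14 and 72.5% of summits within 100 bp, against 70.1% of SNAP3 sites. The other SNAP4 regions had 1.14 and 60.3%, against 69.7% of SNAP4 sites. Neither replicate was regularly the higher one, with replicate 1 higher at 133 SNAP3 sites and 66 SNAP4 sites.

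**Figure D2:**
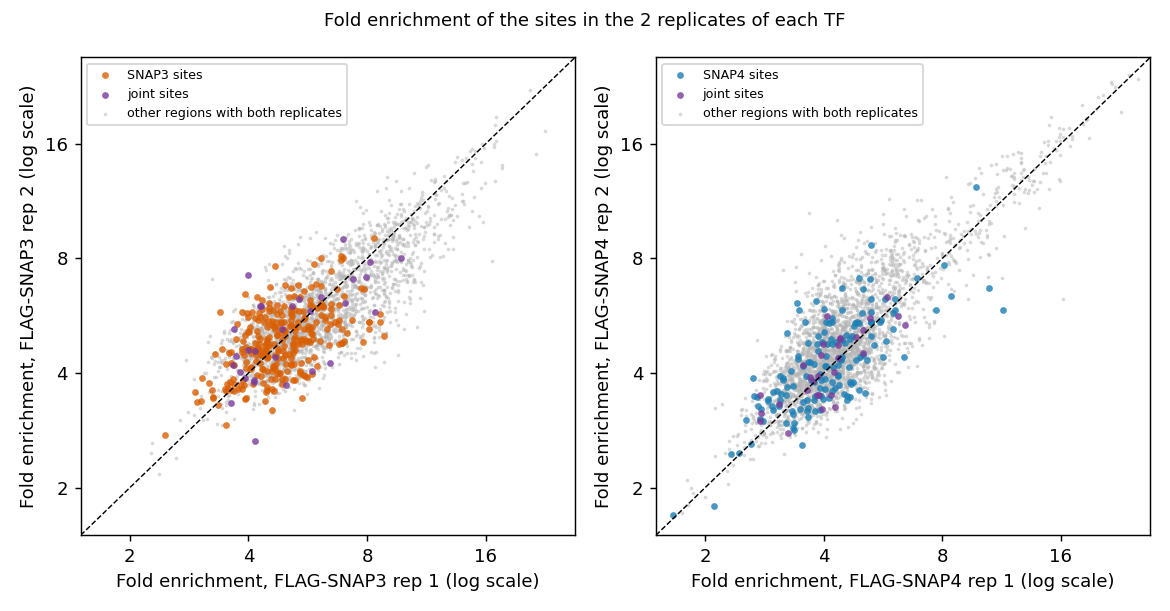
Fold enrichment of each region in replicate 2 against replicate 1 (log scales) for FLAG-SNAP3, left, and FLAG-SNAP4, right; coloured points are SNAP3, SNAP4 and joint sites, grey points are the other regions with both replicates, and the dashed line marks equal values. The sites scatter around the line, with 10 SNAP3 sites and 9 SNAP4 sites differing by more than 1.5-fold.

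Some sites were near the limit of detection in at least 1 library. The authors kept peaks with a q-value up to 0.05. The weaker of the own replicates had a q-value above 0.01 at 19 SNAP3, 14 SNAP4 and 3 joint sites (6.76, 9.21 and 10%). All own replicates were at or below 0.0001 at 88, 49 and 9 sites. In the FLAG-SNAP3 replicates 59.1 and 45.2% of SNAP3 sites reached 0.0001, against 57.7 and 59.0% of all regions with a peak there. In the FLAG-SNAP4 replicates 51.3 and 54.6% of SNAP4 sites did, against 55.6 and 56.4%. Apart from FLAG-SNAP3 replicate 2, these shares were near those of all regions. With that stricter limit in all 8 libraries, 158 SNAP3, 86 SNAP4 and 15 joint sites were found. On the other side of the rule were 369 regions with both replicates of SNAP3 or SNAP4 and exactly 1 SNAP1 or SNAP2 peak. That single peak had a median fold enrichment of 4.16, with values between 1.69 and 8.14, and a q-value above 0.01 in 8 regions. It came from FLAG-SNAP1 replicate 1 in 73 regions, from replicate 2 in 108, from FLAG-SNAP2 replicate 1 in 95 and from replicate 2 in 93, so no single library decided it.

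SNAP1 and SNAP2 peaks were often not far away. The nearest such peak lay a median of 7433 bp from SNAP3 sites, 6461 bp from SNAP4 sites and 7193.5 bp from joint sites. It was within 500 bp of 26 SNAP3, 29 SNAP4 and 7 joint sites, and more than 10 kb away from 120, 64 and 13 sites. The closest was 1 bp from a SNAP4 site inside LOC100790161 (chr17:7122044-7122386, Wm82 a4.v1), where the fold enrichment was 2.89 and 3.38 in the FLAG-SNAP4 replicates and 3.24 in the neighbouring peak of FLAG-SNAP2 replicate 1. A gap of 3 bp separated a SNAP3 site (chr10:43929589-43929902) from a peak of FLAG-SNAP2 replicate 2, and another of 3 bp a SNAP4 site near LOC100786189 (chr13:37567340-37567574) from a peak of FLAG-SNAP1 replicate 2. Leaving out every site with a SNAP1 or SNAP2 peak within 500 bp left 255 SNAP3, 123 SNAP4 and 23 joint sites.

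SNAP3 and SNAP4 sites lay differently relative to genes. The midpoint was inside an annotated gene at 166 of 280 SNAP3 sites on the chromosomes, 59.3% (53.4 to 64.9%), at 57 of 151 SNAP4 sites, 37.7% (30.4 to 45.7%), and at 20 of 30 joint sites, 66.7% (48.8 to 80.8%). The other SNAP3 regions had 50.7% inside genes and the other SNAP4 regions 47.7%, against 40.0% of all regions. SNAP3 sites were thus more often inside genes than other SNAP3 regions, by 8.64 percentage points, and SNAP4 sites less often than other SNAP4 regions, a difference of -9.99 points. These differences were not tested, since the sites of 2 libraries share their source.

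The same split was seen in each library when every region was placed by that library's own peak. Both libraries of a TF were scored over the same regions, so their agreement is largely set by the rule and is no separate support. Sites minus other regions gave 6.42 points in FLAG-SNAP3 replicate 1 and 7.63 in replicate 2, and -9.06 points in FLAG-SNAP4 replicate 1 and -7.44 in replicate 2. The difference for SNAP4 was less stable than that for SNAP3. It was -0.56 points without FLAG-SNAP4 replicate 2 and -4.81 without replicate 1, when sites rest on the remaining replicate alone, and -5.38 without FLAG-SNAP1 replicate 2. With protein-coding genes only it was -3.24 points, while that for SNAP3 was 17.9 points. The comparison sets then still held regions at tRNA genes, which no longer counted as inside those genes. The sites themselves changed less, with 56.1% of SNAP3 sites and 34.4% of SNAP4 sites inside a protein-coding gene. With all genes and without regions at tRNA genes in the comparison sets, the differences were 8.86 points for SNAP3 and -9.07 for SNAP4.

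Sites beyond 2 kb of every gene were most frequent for SNAP4. They made up 50 of 151 SNAP4 sites, 33.1% (26.1 to 41.0%), 44 of 280 SNAP3 sites, 15.7% (11.9 to 20.4%), and 3 of 30 joint sites, 10%. Without FLAG-SNAP4 replicate 2, when SNAP4 sites rest on replicate 1 alone, the share for SNAP4 was 22.7%. The other SNAP4 regions had 604 of 3023 (19.98%) and the other SNAP3 regions 361 of 2306 (15.7%) so far from genes, against 25.2% of all regions. Outside genes but within 1 kb of a gene end lay 19.3% of SNAP3 sites, 23.2% of SNAP4 sites and 20% of joint sites, against 30.3% of the other SNAP3 regions and 28.1% of the other SNAP4 regions, shares that include regions at tRNA genes. Protein-coding genes were also fewer around SNAP4 sites, with a median of 70 in the surrounding 1 Mb, against 85 for the other SNAP4 regions, while SNAP3 sites had 85 and the other SNAP3 regions 86.

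**Figure D3:**
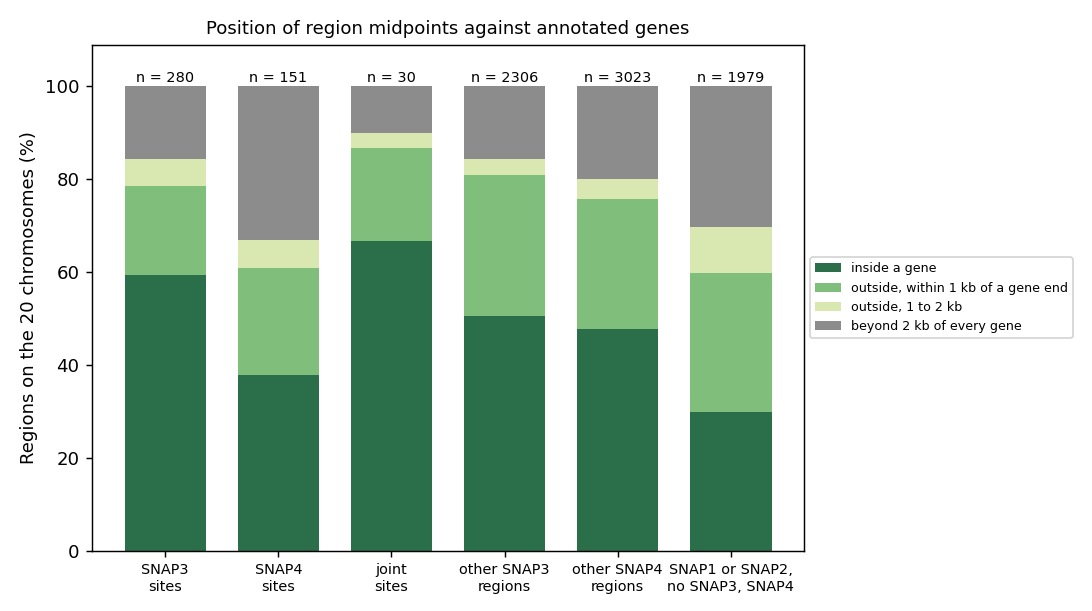
Share of regions (%) with the midpoint inside a gene, outside within 1 kb of a gene end, 1 to 2 kb away or beyond 2 kb, for the 3 kinds of site, the other regions with both replicates, and regions of SNAP1 or SNAP2 without SNAP3 and SNAP4. SNAP4 sites have the smallest share inside genes among the 3 kinds of site, 37.7%, and the largest share beyond 2 kb, 33.1%.

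The sites held no transfer RNA (tRNA) genes. No site had a summit within 200 bp of a tRNA gene (0 of 461, which allows a share of up to 0.651% by 3 counts of the total, with a Wilson upper limit of 0.826%). Of the other SNAP3 regions 549 (23.8%) had one, and of the other SNAP4 regions 542 (17.9%). By the strongest summit, 3.11% of all regions were at a tRNA gene. Among regions with both SNAP3 replicates, those at tRNA genes were 35.9% of the regions with peaks in all 4 SNAP1 and SNAP2 libraries, 0.329% of those with 3 and none of those with 1 or 2. Regions at tRNA genes were therefore almost entirely in the comparison sets. Without them the other SNAP3 regions had 50.4% inside genes and 20.5% beyond 2 kb, and the other SNAP4 regions 46.8% and 24.3%. Within 1 kb of a gene end lay 24.5% of the other SNAP3 regions and 23.7% of the other SNAP4 regions, and the 23.2% of SNAP4 sites lay close to the value of the other SNAP4 regions. The share beyond 2 kb of SNAP3 sites then lay below that of the other SNAP3 regions, and the share of SNAP4 sites stayed above that of the other SNAP4 regions.

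Regions just outside the rule resembled the sites in part. The 211 SNAP3 regions on the chromosomes with exactly 1 SNAP1 or SNAP2 peak had 58.8% inside genes (52.0 to 65.2%), close to the 59.3% of SNAP3 sites. The 207 SNAP4 regions with exactly 1 had 47.3% inside genes (40.7 to 54.1%) and 22.7% beyond 2 kb (17.5 to 28.9%), close to the other SNAP4 regions. Regions of SNAP1 or SNAP2 in both replicates with no SNAP3 or SNAP4 peak had 29.9% inside genes and 30.2% beyond 2 kb. A single peak of the other TF made little difference among the sites. SNAP3 sites had 60.3% inside genes with 1 SNAP4 peak and 58.9% with none, and SNAP4 sites had 40.5% with 1 SNAP3 peak and 36.8% with none.

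Position varied with the strength of enrichment in the sets divided by it, the SNAP3 sites, the SNAP4 sites and the other regions without tRNA genes. When the SNAP3 sites were divided at their median fold enrichment of 4.87 (mean of both replicates), 48.6% of the stronger 140 (40.4 to 56.8%) and 70.0% of the weaker 140 (62.0 to 77.0%) were inside genes. When the SNAP4 sites were divided at 4.17, 20% of the stronger 75 (12.51 to 30.4%) and 55.3% of the weaker 76 (44.1 to 65.9%) were inside genes. Of the stronger SNAP4 sites 48.0% lay beyond 2 kb of every gene, against 18.4% of the weaker ones. Other regions without tRNA genes, divided at the same values, showed the same direction with 45.5% of stronger and 60.3% of weaker regions inside genes for SNAP3, and 37.3% and 59.5% for SNAP4. For SNAP3 the intervals of sites and other regions overlapped in both groups, with 42.7 to 48.4% for the stronger and 56.3 to 64.2% for the weaker other regions. Of these other SNAP3 regions 1173 were stronger and 584 weaker, so they also differed from the sites in strength. The part of strength in the SNAP3 difference inside genes was not tested. The intervals of the weaker SNAP4 sites and the weaker other SNAP4 regions overlapped, whereas the stronger SNAP4 sites lay below the 34.8 to 39.9% of the stronger other SNAP4 regions. The stronger SNAP4 sites also lay in regions with fewer protein-coding genes, with a median of 63 within 1 Mb, against 80 for the weaker SNAP4 sites and 79 for the stronger other SNAP4 regions.

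**Figure D4:**
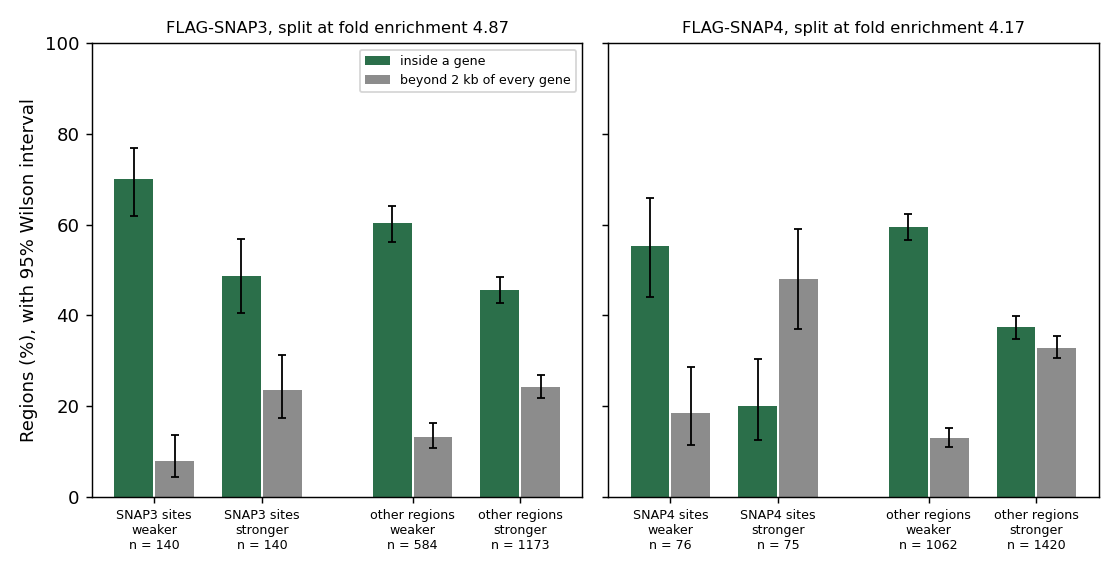
Share of regions (%) inside a gene and beyond 2 kb of every gene, for stronger and weaker regions divided at the median fold enrichment of the sites, with 95% Wilson intervals; sites stand left of the other regions, from which those at tRNA genes were left out. Among the stronger SNAP4 sites 20% lie inside genes and 48.0% beyond 2 kb.

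Where the midpoint was inside a gene it was mostly near one of its ends. It lay within 500 bp of an end at 117 of 166 SNAP3 sites (70.5%), 33 of 57 SNAP4 sites (57.9%) and 13 of 20 joint sites (65.0%), against 74.7% of the other SNAP3 regions and 70.4% of the other SNAP4 regions. Without regions at tRNA genes, which are short, these were 67.4% and 63.7%, and the share of SNAP3 sites was then the higher one. The median distance to the nearest end was 340.5 bp, 353 bp and 282 bp for the 3 kinds of site. The annotation used gives no strand, so the start of a gene cannot be told apart from its end.

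In all, 364 sites were assigned to 355 genes, a gene being assigned when it held the midpoint or had its nearest end within 2 kb. Of these sites, 340 were at protein-coding genes, 12 at long noncoding RNA genes and 9 at pseudogenes. The sites reached 331 of 46816 protein-coding genes (0.707%). A site without SNAP1 and SNAP2 did not always mean a gene without them. Of the 355 genes, 128 (36.1%) had another region with a SNAP1 or SNAP2 peak assigned to them, and 67 had one with both replicates of SNAP1 or SNAP2. Another region with a SNAP1 or SNAP2 peak was present at 69 of 231 genes with SNAP3 sites (29.9%), 47 of 100 with SNAP4 sites (47.0%) and 14 of 27 with joint sites (51.9%). Of all protein-coding genes, 24.3% had a region of any of the 8 libraries. The same share for genes of the other SNAP3 and SNAP4 regions is not given here, so these shares are not read as high or low.

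The 8 strongest SNAP3 sites at genes were those with the highest mean fold enrichment in the FLAG-SNAP3 replicates. LOC100780632 had a site 72 bp outside the gene (chr4:48515365-48515637) with 6.96 and 8.01 in the FLAG-SNAP3 replicates, 7.48 ± 0.74 (SD, n = 2). LOC100775835 had a site inside the gene (chr12:8762-9015) with 6.87 and 8.10. Neither had a peak in any other library. LOC100782532 (chr9:35855245-35855571) with 8.61 and 5.72 and LOC100795388 (chr14:1714666-1715009) with 6.49 and 7.39 also had SNAP3 peaks only, and the replicates differed more at LOC100782532 than at LOC100795388.

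At 4 more of these SNAP3 sites a single SNAP4 library had a peak. LOC100791310 (chr20:3658124-3658744) had 7.71 and 6.68 in the FLAG-SNAP3 replicates and 4.77 in FLAG-SNAP4 replicate 2. LOC100784132 (chr17:4576765-4577164) had 6.11 and 8.01, with 4.13 in FLAG-SNAP4 replicate 2. LOC100782204 (chr18:52445611-52445859) had 8.63 and 5.45, with 4.597 in FLAG-SNAP4 replicate 1. The gene B13-1-1 on chromosome 8 (chr8:10721385-10721724) had 8.84 and 4.997, 6.92 ± 2.72 (SD, n = 2), with 5.09 in FLAG-SNAP4 replicate 1. Its SNAP3 replicates differed most among the 8 strongest SNAP3 sites at genes.

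The highest SNAP3 site lay on an unplaced scaffold with no annotated gene (scaffold_117:220-513), with 8.33 and 9.07 in the FLAG-SNAP3 replicates and 5.85 in FLAG-SNAP4 replicate 2. The 3 strongest SNAP3 sites beyond 2 kb of genes were chr12:19848880-19849250 with 6.87 and 7.93, chr15:50168470-50168842 with 7.85 and 6.65, and chr2:41409674-41409909 with 5.87 and 7.74. The first of these lay 464 bp from a peak of FLAG-SNAP2 replicate 1. The lowest SNAP3 site, inside LOC100812342 (chr3:44787528-44787892), had 2.46 and 2.75.

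The SNAP4 site with the highest mean fold enrichment lay far from genes. It (chr1:25553467-25553809) had 9.72 and 12.3 in the FLAG-SNAP4 replicates, 11.0 ± 1.82 (SD, n = 2), and 6.25 in FLAG-SNAP3 replicate 1. The nearest gene was 6000 bp away and the nearest SNAP1 or SNAP2 peak 53799 bp, and 20 protein-coding genes were within the surrounding 1 Mb. A site at chr14:36916855-36917170 had 10.53 and 6.68, lay 12584 bp from a gene and 415263 bp from a SNAP1 or SNAP2 peak. Another of this kind was at chr2:39247149-39247377 with 8.10 and 7.70. All 3 lay where protein-coding genes were few, with 20, 9 and 23 within 1 Mb.

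Of the SNAP4 sites assigned to genes the strongest was 554 bp outside the pseudogene LOC100791512 (chr15:48435880-48436131), with 11.4 and 5.85, 8.62 ± 3.92 (SD, n = 2), a difference between replicates of 1.95-fold that was the largest among the SNAP4 sites. LOC121175143 (chr7:2268516-2268780) with 5.25 and 7.07 and LOC121173937 (chr18:24794504-24794973) with 5.26 and 6.27 were pseudogenes as well. LOC100782737 (chr10:45757796-45758008) had 4.90 and 7.08. At LOC100816987 (chr19:30650908-30651185), with 6.07 and 5.85, LOC100819018 (chr16:16673501-16673883), with 5.99 and 5.74, and LOC100804583 (chr14:29973880-29974165), with 5.98 and 5.21, FLAG-SNAP3 replicate 1 had peaks of 5.94, 6.21 and 5.50. These sites had a SNAP3 peak in 1 replicate only and so were counted with SNAP4.

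The weakest SNAP4 sites were 2 on chromosome 17 separated by 7792 bp. One (chr17:23684009-23684338) had 1.66 and 1.70 and the other (chr17:23692131-23692447), 1781 bp from a tRNA gene, had 2.11 and 1.79. A SNAP4 site on a scaffold (scaffold_103:40125-40450) had 5.26 and 5.43, with 5.73 in FLAG-SNAP3 replicate 1.

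Joint sites are those with peaks in all 4 libraries. Of the named ones, some lay inside genes, some outside within 2 kb and some beyond 2 kb. LOC100801444 (chr1:56166994-56167339) had 7.94 and 7.16 in the FLAG-SNAP3 replicates and 6.44 and 5.36 in the FLAG-SNAP4 replicates, with a SNAP1 peak 914 bp away. LOC100775697 (chr7:17366197-17366567) had 8.12 and 7.83 for SNAP3 and 4.35 and 4.73 for SNAP4. LOC100810309 (chr1:17614863-17615411) had 7.05 and 6.10 for SNAP3 and 6.19 and 5.64 for SNAP4, in a window of 6 protein-coding genes per 1 Mb. Fold enrichments of different libraries are on scales of their own, so these values do not rank the TFs.

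The next joint sites by mean fold enrichment were at LOC100814575 (chr15:7515138-7515571), LOC100820268 (chr15:3074814-3075263), LOC106797056 (chr18:57352604-57353010), LOC100813787 (chr19:37945393-37945628) and LOC102669997 (chr4:1860619-1861125), with means over the 4 libraries between 5.44 and 6.03. The site at LOC106797056 lay 94 bp from a SNAP2 peak, and LOC100820268 and LOC102669997 also had another region with a SNAP1 or SNAP2 peak. The strongest joint site of all was far from genes (chr1:699249-699561), with 9.77 and 8.01 for SNAP3 and 5.80 and 6.33 for SNAP4, 10843 bp from IQD1. Other joint sites beyond 2 kb were chr3:3895936-3896354, with values between 4.82 and 5.22 in the 4 libraries, and chr1:56213322-56213938, with 3.98 and 7.23 for SNAP3 and 4.26 and 4.03 for SNAP4.

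**Figure D5:**
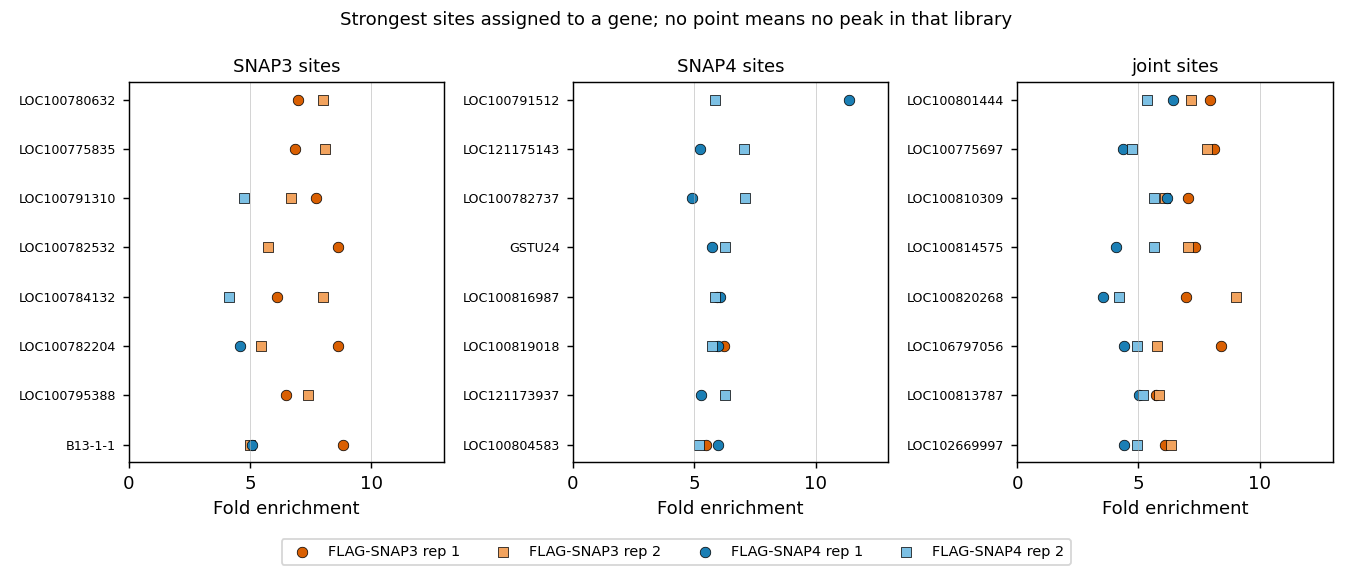
Fold enrichment in each library at the 8 strongest SNAP3, SNAP4 and joint sites assigned to a gene, one line per gene; circles are replicate 1 and squares replicate 2, and no point means no peak. At LOC100791512 the FLAG-SNAP4 replicates had 11.4 and 5.85, and at LOC100816987 they had 6.07 and 5.85.

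Genes of families known for senescence, stress or nodules were counted next, and a site was found at 0.707% of all protein-coding genes. Families could be counted only by gene symbol, which 2348 of the 46816 protein-coding genes carry, and 27 genes with a symbol had a site. Any region was found at 24.3% of all protein-coding genes. That share among genes with a symbol is not given here, so counts with any region are not read as high or low. Of 50 NAC genes 28 had any region and 1 had a site, of 64 WRKY genes 48 had any region and 1 had a site, and of 26 ethylene response factor (ERF) genes 20 had any region and 1 had a site. None of the 35 nodulin and leghemoglobin genes, 6 autophagy genes, 3 nitrate transport genes, 2 vacuolar processing enzyme genes and 2 DnaJ genes had one, although 8, 1, 2, 1 and 2 of them had some region. At the share of all protein-coding genes, lists of this size would hold few sites or none, so these counts are no result about the families. NAC11, the gene of SNAP4 itself, had no region within 2 kb, and the nearest site was 762876 bp away.

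The genes of these 3 TF families with a site were NAC175, WRKY12 and ERF7. NAC175, a further NAC TF gene, had a SNAP4 site 323 bp outside the gene (chr13:38724037-38724465) with 3.83 and 6.17 in the FLAG-SNAP4 replicates, 5.001 ± 1.65 (SD, n = 2), and 5.50 in FLAG-SNAP3 replicate 1. WRKY12, of a family that acts in defence and senescence, had a SNAP4 site 96 bp outside the gene (chr1:56450274-56450633) with 2.65 and 3.47, 814 bp from a SNAP2 peak of 2.84. ERF7 had a joint site inside the gene (chr7:3682701-3683093) with 3.68 and 5.22 for SNAP3 and 4.28 and 3.25 for SNAP4, 259 bp from a SNAP1 peak of 3.71. WRKY12 and ERF7 thus also had SNAP1 or SNAP2 regions, and NAC175 had none.

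The remaining genes with a symbol were named after their values had been seen. A group of tau-class glutathione S-transferase genes, whose products join glutathione to reactive compounds, held 4 sites on chromosome 7. GSTU24 had a SNAP4 site 298 bp outside the gene (chr7:16432712-16433210) with 5.72 and 6.27. GSTU27 had a SNAP3 site 30 bp outside the gene (chr7:16441824-16442165) with 4.74 and 5.03 in the FLAG-SNAP3 replicates and 3.68 in FLAG-SNAP4 replicate 2. GSTU30 held 2 SNAP4 sites 97 bp apart, with 3.69 and 4.28 at the one (chr7:16486622-16486934) and 4.73 and 3.80 at the other (chr7:16487032-16487344).

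SNAP1 and SNAP2 peaks were present in the same neighbourhood. A SNAP2 peak lay 253 bp from the GSTU27 site, and SNAP1 and SNAP2 peaks of 5.004 and 3.56 shared a region 846 bp from the nearer GSTU30 site. In the annotation 74 glutathione S-transferase genes carried a matching symbol, of which 24 had any region and 3 had a site. Of all protein-coding genes 24.3% had any region and 0.707% had a site, and 27 genes with a symbol had a site. This list was not among those planned, so its count is no result about the family.

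Signalling genes with SNAP3 sites included SCAM-2 and SCAM-3, which encode soybean calmodulins. SCAM-2 (chr13:16790050-16790493) had 4.67 and 3.86, 103796 bp from any SNAP1 or SNAP2 peak. SCAM-3 (chr19:23402575-23403073) had 4.55 and 6.73, only 180 bp from a SNAP2 peak. The bZIP TF gene BZIP124 (chr12:2927129-2927669) had 4.42 and 4.74, and the gene also had another region with a SNAP1 or SNAP2 peak. The microRNA gene MIR166C (chr7:4478148-4478413) lay within a SNAP3 site with 5.65 and 5.30, and microRNAs of this family target mRNAs of class III HD-ZIP TFs.

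Among SNAP4 sites, PAD4, in Arabidopsis a regulator of defence signalling, had a site inside the gene (chr8:142107-142509) with 3.91 and 3.98 and a peak of 5.77 in FLAG-SNAP3 replicate 1. SIZ1B, a SUMO ligase gene, had 3.90 and 3.20 (chr11:11563349-11563789). Replicates lay close together at PAD4 and further apart at SIZ1B. Both genes also had another region with a SNAP1 or SNAP2 peak.

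Genes of metabolism with SNAP3 sites were SAMDC, for S-adenosylmethionine decarboxylase of polyamine synthesis (chr2:12768740-12769465, 4.46 and 4.44), FAD2-2B, a fatty acid desaturase (chr19:41265641-41265914, 5.75 and 6.73), UGT8, a glycosyltransferase (chr16:33915885-33916510, 4.68 and 7.65), and ITPK3, an inositol phosphate kinase (chr6:6927280-6927645, 3.66 and 3.87). TUBB2, for a beta-tubulin, had 3.83 and 3.73 (chr3:19711572-19711933) and a SNAP2 peak 312 bp away. With SNAP4 sites were UGD1, for UDP-glucose dehydrogenase (chr8:20877972-20878685, 3.49 and 3.21), with a SNAP1 peak 153 bp away, and CYP93A3, for a cytochrome P450 (chr3:36982548-36982932, 3.35 and 3.70). The replicates of UGT8 differed most in this group. SAMDC, like TUBB2 and UGD1, also had another region with a SNAP1 or SNAP2 peak.

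A few genes held several sites. LOC100800402 had 3 SNAP3 sites within or beside it, with 2.96 and 3.37 (chr10:40479995-40480317), 3.89 and 3.71 (chr10:40480720-40481077) and 3.25 and 3.46 (chr10:40481216-40481545) in the FLAG-SNAP3 replicates. In all, 8 genes had 2 or more sites. At LOC100794059 a SNAP4 site with 4.04 and 3.63 (chr11:533352-533716) lay 518 bp from a SNAP3 site with 5.58 and 3.92 (chr11:534235-534710). LOC100812342 and LOC100816412 each had a joint site and a SNAP3 site. All of these sites were weaker than the strongest ones above. LOC100800402, LOC100794059 and LOC100812342 also had another region with a SNAP1 or SNAP2 peak, and LOC100816412 had none.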

How the data were processed

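Peaks came from 8 ChIP-seq libraries, 2 for each of SNAP1 to SNAP4. Per the methods and the processing notes, the authors trimmed reads with Trim Galore 0.6.6, aligned the trimmed reads with Bowtie2 2.3.4.3 to Wm82 a4.v1, filtered them with SAMtools and called peaks in each library with MACS2 2.2.7.1 at a q-value of 0.05. A control for the calls is not given in the sources used here. The lists hold no read depth, and a library's own local background sets its fold enrichment. For each peak the authors deposited a score, the fold enrichment as a ratio, and the p-value and q-value as −log10. The score was not used.

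Peaks overlapping by 1 bp or more were joined, also in chains, and each library's strongest peak stood for it in a region. The midpoint was set against the RefSeq genes of Glycine_max_v4.0, whose coordinates were checked against the peaks through the 709 tRNA genes, of which 557 to 632 had a summit within 200 bp in a SNAP3 or SNAP4 library and 2 to 5 after a shift of 20 kb. Sites on scaffolds (2) have no position. The reference table holds neither descriptions nor strand, so families were matched by symbol in place of the descriptions planned, and none of the protein phosphatase genes matched. Other lists with no site were MYB, cysteine protease, glutamine and asparagine synthetase, trehalose, ribosomal protein, histone, ubiquitin, heat shock, elongation and initiation factor, kinase receptor and aquaporin genes. By rule, the genes named are, per kind of site, the 8 strongest at a gene and the 3 strongest beyond 2 kb by mean fold enrichment, those of the first lists in the report, and the 3 sites nearest to a SNAP1 or SNAP2 peak. Other genes with a symbol, genes with several sites, and the weakest and scaffold sites were added after their values had been seen. The members and lists were chosen with earlier results of these data known. No test was run. Wilson intervals are at 95%. The steps were tested on simulated data. Alternatives were other overlaps, gaps, q-values, equal numbers of peaks, single replicates, summits, protein-coding genes only, leaving out each library and, added after the data had been seen, equal numbers of peaks in the SNAP3 and SNAP4 libraries only and comparison sets without tRNA genes. Python 3.11.15, numpy 2.4.6, pandas 2.3.3, SciPy 1.17.1 and matplotlib 3.10.9 were used.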

Additional observations from a re-analysis of the deposited data

Results flagged for a closer look

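The share of regions inside genes differed between sites and other regions in opposite directions for the 2 TFs, in every library. The 2 libraries of a TF share their regions, so their agreement is no separate support. Sites minus other regions gave 6.42 percentage points in FLAG-SNAP3 replicate 1 and 7.63 in FLAG-SNAP3 replicate 2, but -9.06 in FLAG-SNAP4 replicate 1 and -7.44 in FLAG-SNAP4 replicate 2. The difference between the TFs was not tested. Without regions at tRNA genes in the comparison sets the values were 8.97 and 9.81 for SNAP3, and -8.12 and -6.07 for SNAP4.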

How the results depend on the processing

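No paired analysis was possible because the results come from no test. Of 220 alternative values, 191 stayed within 1.5 times the reported count, the interval of the reported share or the spread between replicates, and none changed direction. SNAP3, SNAP4 and joint sites numbered 158, 86 and 15 at a q-value of 0.0001, 93, 54 and 9 with that limit for SNAP3 and SNAP4 only, 2178, 2083 and 372 with a peak in at least 1 replicate, and 168, 55 and 12 with as many of the strongest peaks in each SNAP3 and SNAP4 library as in the shortest list. The same in all 8 libraries gave 47 joint sites. With the limit for SNAP3 and SNAP4 only, 30.2% of SNAP4 sites were inside genes, 41.5% beyond 2 kb, and the difference inside genes from other SNAP4 regions was -20.8 points. With protein-coding genes only that of SNAP3 was 17.9 points, in comparison with sets that still held regions at tRNA genes. Without those regions and with all genes it was 8.86 points. Leaving out each library in turn gave 235 to 2027 SNAP3, 118 to 1402 SNAP4 and 36 to 77 joint sites. Under it SNAP3 sites were 54.8 to 60.7% inside genes, 14.7 to 20.1% within 1 kb and 14.2 to 22.8% beyond 2 kb, and 0 to 1 were at a tRNA gene. SNAP4 sites were 35.6 to 44.4% inside, 21.5 to 26.0% within 1 kb and 22.7 to 36.4% beyond 2 kb. Joint sites were 53.5 to 72.1% inside, 17.1 to 26.2% within 1 kb and 6.82 to 19.4% beyond 2 kb. The difference inside genes was 6.73 to 11.95 points for SNAP3 and -12.1 to -0.56 for SNAP4. A motif search planned in windows around the sites was not run, since no genome was used here. Read depth per library is not in the lists, and the study states only a minimum for all samples, which limits every statement about a missing peak.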

Other observations

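Sites were spread over all 20 chromosomes. The number of SNAP3 sites per chromosome ranged between 6 and 31 with a median of 13, and chromosome 8 held 31 of them (11.1%), against 5.51% of the other SNAP3 regions. SNAP4 sites ranged between 2 and 11. Of the 30 joint sites 7 were on chromosome 1 (23.3%), against 4.90% of the other SNAP3 regions and 5.09% of the other SNAP4 regions, and 8 chromosomes held none.

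Regions of a single TF were more numerous for SNAP1 and SNAP2. With both replicates of 1 TF and no peak in any library of the others, there were 202 regions for SNAP3 and 114 for SNAP4, and 682 for SNAP1 and 437 for SNAP2. Regions with both replicates of exactly 2 TFs numbered 30 for SNAP3 with SNAP4, 26 for SNAP1 with SNAP3, 64 for SNAP1 with SNAP4, 30 for SNAP2 with SNAP3, 72 for SNAP2 with SNAP4 and 249 for SNAP1 with SNAP2. The longer peak lists of SNAP1 and SNAP2 move with these counts, and the part of list length in them was not tested.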
